A study of Mus musculus with 12 samples.

Results

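The 10 genes described here were *Atf4*, the stress regulators *Atf3*, *Atf5*, *Ddit3*, *Ddit4*, *Trib3* and *Nupr1*, and the stress-secreted factors *Fgf21*, *Gdf15* and *Adm2*. They were taken by symbol from 17007 rows of gene expression values, and all 10 were among the 14397 genes that reached 0.5 FPKM in 3 or more of the 12 libraries. They were chosen by function, and also selected on measured values, since the gap between MLN0128 and everolimus in these same libraries was in view. *Atf3*, *Nupr1* and *Adm2* had normal liver libraries under 0.5 FPKM and met this level through the tumors. RNA was sequenced from 12 samples in 4 groups of 3. The normal livers came from C57BL/6 wild-type mice, with no treatment listed. The other 9 samples were c-MYC/MCL1/RictorKO Tsc2KO liver tumors of mice that received vehicle, MLN0128 at 1 mg/kg a day or everolimus at 1 mg/kg a day, by mouth. The length of dosing is uncertain. The labels of these samples give 6 days a week for 3 weeks from day 6 after tumor induction and sacrifice at 3.7 weeks, whereas the study's account of the sequenced tumors gives 3 days. Male and female mice were used in the study, without the sex of each sample, and ages were not given in the sources used here.

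Vehicle tumors carried the same transgenes and deletions as the drug-treated tumors. Plasmids for c-MYC, MCL1 and Cre were pushed into the tail vein of mice with floxed *Rictor* and *Tsc2*, so Cre reached only hepatocytes that took up plasmid, and the other cells of the liver kept both genes. The normal livers had neither the plasmids nor the floxed alleles, so tumor state, transgenes and deletions cannot be told apart in that comparison. MLN0128 blocks the mTOR kinase itself and hence mTORC1 and mTORC2. Everolimus, an analog of rapamycin, targets mTORC1. These tumors lack *Rictor*, an essential subunit of mTORC2, and *Tsc2*, an inhibitor of mTORC1.

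ATF4 is a basic leucine zipper transcription factor of the integrated stress response. When a stress kinase phosphorylates eIF2 alpha, most translation slows and translation of *Atf4* mRNA rises, and growing cells also raise ATF4 through mTORC1. ATF4 dimerizes with C/EBP proteins on C/EBP-ATF response elements and turns on amino acid synthesis and transport genes, further transcription factors and hormones that the stressed liver releases.

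Promoters of all 10 genes were found in the RefSeq promoter table of GRCm38.p6, which holds 250 bases before and 50 bases after each start, as 12 promoters. The response element core TGATGNAA, read on both strands, was present in 4 of the 10 genes against 3.97% of all 32851 promoters and 4.51% of 27025 genes. In *Trib3* the match began 14 bases after the listed start, which could not be matched to the transcripts of the gene. That match, at 152344039 to 152344046 of chromosome 2, lies before the start of the GENCODE gene record, 152344032 on the minus strand. The 3 matches upstream of a listed start are shown because the same 8 letters recurred in genes of 3 kinds, a transcription factor, a chromatin protein and a hormone. Each stretch is 30 bases, 5′ to 3′ on the gene's strand (the minus strand in all 3), with the match in capitals, which is the core read from the opposite strand.
*Atf3*, chr1:191183425-191183454: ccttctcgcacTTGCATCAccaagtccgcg
*Fgf21*, chr7:45615611-45615640: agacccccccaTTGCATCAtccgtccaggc
*Nupr1*, chr7:126625562-126625591: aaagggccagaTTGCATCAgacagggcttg
The match began 110 bases before the start in *Atf3* and *Nupr1* and 139 bases before it in *Fgf21*. The cyclic AMP response element TGACGTCA was found in 0 of the 10 genes (1.79% of all promoters), and the E-box CACGTG in *Fgf21*, *Nupr1* and *Gdf15* (7.15%). The core was also present in 12 of the 37 genes of the ATF4 target lists used below that had a listed promoter, among them *Asns*, *Chac1*, *Slc7a11* and *Aars*. A match of letters says nothing on binding.

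The unit is FPKM, or fragments per kilobase of exon at a common library size, and 17189380 to 25209571 reads per library could be recovered from them. *Rictor* and *Tsc2* were lower in the 3 vehicle tumors (1.05 to 1.5 and 2.01 to 2.31 FPKM) than in the 3 normal livers (1.65 to 2.57 and 4.5 to 5.32), over whole genes rather than the floxed exons. *Rictor* was at 1.65 to 2.21 FPKM with MLN0128 and 1.58 to 1.93 with everolimus, overlapping the normal livers. *Tsc2* was at 2.81 to 3.96 and 2.78 to 2.87 FPKM, below the normal livers. In the drug-treated tumors both genes thus lay above all vehicle tumors. The share of cells with the deletions in each group was not tested. MLN0128 replicates 1 and 2 held *Xist* RNA at 191 and 155 FPKM and the Y-linked gene *Uty* at 0, unlike the other 10 libraries. The results with MLN0128 are therefore also given for replicate 3 alone. The summed FPKM of 10 hepatocyte markers ranged over 84621 to 105180 in normal livers, 3986 to 6175 in vehicle tumors, 1924 to 4265 in MLN0128 tumors and 3241 to 8202 in everolimus tumors, and none of the 10 was at 0 in any library. In bulk tissue, fewer cells of a type and less RNA per cell cannot be told apart.

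*Atf4* (ENSMUSG00000042406.8, chromosome 15, 80255184 to 80257541 of GRCm38), the head of the pathway, had 61.7, 68.4 and 49.3 FPKM in normal livers. In vehicle tumors it was at 148, 168 and 130 FPKM. With MLN0128 it was at 33.8, 35.6 and 30 FPKM and with everolimus at 96.9, 86.3 and 141. On the authors' scaling, all 3 MLN0128 tumors thus lay below all normal livers. The everolimus tumors lay above the normal livers and overlapped the vehicle tumors. With plain library totals instead, the log2 fold change of *Atf4* was 2.22 in vehicle tumors against normal liver. With MLN0128 against vehicle it was then -1.99, a smaller change, so the place below normal liver rests on the scaling. *Atf3*, a related factor that ATF4 induces, had 0.431, 0.674 and 0.845 FPKM in the normal livers compared with 14.2, 35 and 16.2 in the vehicle tumors. It was at 1.80, 1.05 and 2.91 FPKM with MLN0128 and at 3.51, 6.75 and 15.4 with everolimus. The groups followed the order vehicle, everolimus, MLN0128, normal liver, and only vehicle and everolimus overlapped. *Atf5*, a close relative of ATF4 that hepatocytes make in abundance, had 191, 385 and 93 FPKM in normal livers. Vehicle tumors held it at 164, 164 and 145 FPKM, MLN0128 tumors at 30.5, 45.7 and 26.3 and everolimus tumors at 182, 151 and 181. Here the normal livers spanned the vehicle and everolimus tumors, and the MLN0128 tumors alone stood apart.

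**Figure D1:**
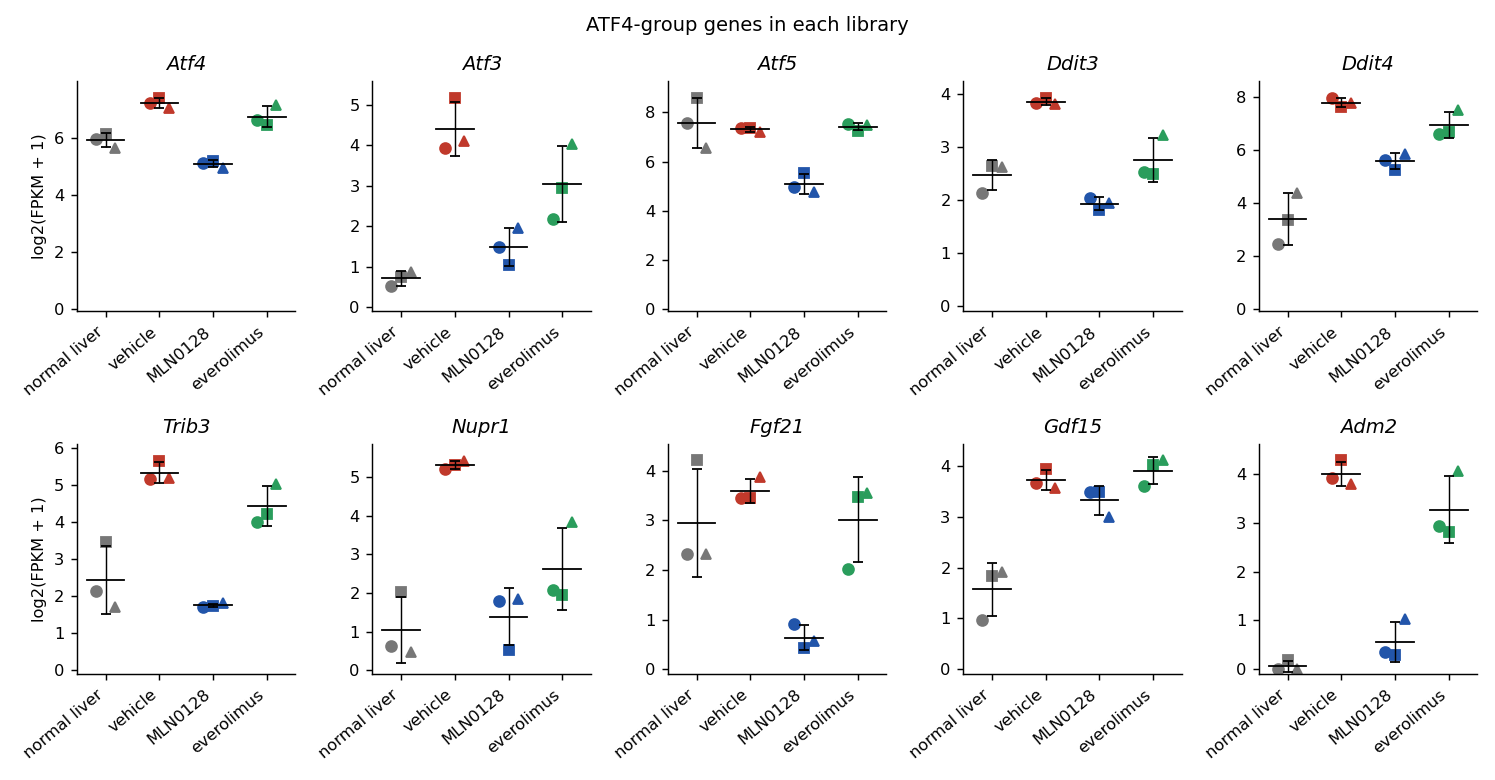
Levels of the 10 genes in each library, as log2(FPKM + 1) on the vertical axis, by group (circle, square and triangle are replicates 1, 2 and 3, the line is the group mean and the bar its SD, n = 3). The MLN0128 tumors lie below the vehicle and everolimus tumors in all 10 panels, by the least for *Gdf15*, and everolimus replicate 3 is the highest everolimus library in 9 of them.

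*Ddit3* encodes CHOP, the partner of ATF4 in stress-induced cell death. Normal livers held it at 3.41, 5.24 and 5.20 FPKM, vehicle tumors at 13.3, 14.3 and 13.1, MLN0128 tumors at 3.14, 2.52 and 2.86 and everolimus tumors at 4.79, 4.67 and 8.39. On the authors' scaling the MLN0128 tumors were again below the normal livers, and the everolimus tumors overlapped them. With plain library totals the log2 fold change of *Ddit3* was 2.15 in vehicle tumors against normal liver. With MLN0128 against vehicle it was then -1.84, a smaller change, so this place also rests on the scaling. *Ddit4* encodes REDD1, which restrains mTORC1 through the TSC complex that these tumors lack. From 4.44, 9.35 and 19.9 FPKM in normal livers, it stood at 252, 197 and 220 in vehicle tumors, 49.1, 37.6 and 57.4 in MLN0128 tumors and 98, 103 and 181 in everolimus tumors. No groups overlapped for *Ddit4*, and it had the highest mean FPKM of the 10 genes in vehicle tumors, 223 ± 27.6 (SD, n = 3).

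*Trib3* encodes a pseudokinase that binds ATF4 and CHOP and dampens their activity. Its level was 3.40, 10.1 and 2.30 FPKM in normal livers but 35, 49.5 and 35.2 in vehicle tumors. With MLN0128 it was at 2.30, 2.32 and 2.50 FPKM and with everolimus at 15.1, 17.7 and 31.8. The 3 MLN0128 values lay close together and within the range of the normal livers, and the everolimus tumors lay between the vehicle tumors and the rest. *Nupr1*, a small stress-induced chromatin protein, had 0.553, 3.10 and 0.381 FPKM in normal livers and 35.9, 38.7 and 42.1 in vehicle tumors. MLN0128 tumors held 2.44, 0.448 and 2.58 FPKM and everolimus tumors 3.20, 2.89 and 13.3. Both drugs left it below all vehicle tumors.

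Of the secreted factors, *Fgf21*, the liver hormone of fasting and protein shortage, had 4, 17.5 and 4.03 FPKM in normal livers and 9.91, 9.93 and 13.6 in vehicle tumors. MLN0128 tumors held 0.889, 0.345 and 0.484 FPKM and everolimus tumors 3.06, 10.1 and 10.7. The MLN0128 values rest on 24, 7 and 11 recovered reads and lay below those of every other group. *Gdf15*, a hormone that lowers food intake through a receptor in the hindbrain, rose from 0.951, 2.55 and 2.79 FPKM in normal livers to 11.7, 14.4 and 10.8 in vehicle tumors, and drug-treated tumors held 10.2, 10.3 and 6.97 under MLN0128 and 11.2, 15.2 and 16.3 under everolimus. Its mean was 74.4% of the vehicle mean with MLN0128 and 116% with everolimus, and both drug groups lay above all normal livers. *Adm2*, a peptide of the calcitonin family also called intermedin, had 0, 0.140 and 0 FPKM in normal livers and 14.1, 18.4 and 12.9 in vehicle tumors. MLN0128 tumors held 0.271, 0.217 and 1.03 FPKM and everolimus tumors 6.65, 6.03 and 15.8. It was near absent from normal liver and present in all 3 vehicle tumors.

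In the tumors, 8 of the 10 genes were higher than in normal liver: *Atf4*, *Atf3*, *Ddit3*, *Ddit4*, *Trib3*, *Nupr1*, *Gdf15* and *Adm2*. The rises spanned from 2.49-fold in mean FPKM for *Atf4* itself to 33.5-fold for *Atf3*, with *Adm2* beyond these. *Atf5* and *Fgf21*, which the normal liver already made, did not pass the test. Calls were made with limma's treat test of whether a fold change exceeds 1.5, at a Benjamini-Hochberg adjusted p under 0.05 over all 14397 genes. By this rule 8 members were higher, beside 15.9% of all genes, and 0 were lower, beside 16.9%. Of the 8, *Atf3*, *Nupr1* and *Adm2* met the filter through the tumors, which favors a rise. Their part in this count is therefore not read as a result. Limma's moderated test, which asks only for a difference from 0, also gave 8 higher (36% of all genes) and 0 lower (33%), and 0 lower at an unadjusted p under 0.05. The median log2 fold change, on the log2(FPKM + 1) scale used throughout, was 2.52 over the 10 genes and 0.06 over all tested genes.

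The log2 fold change of *Atf4* in vehicle tumors against normal liver was 1.30 (SE 0.188), with an adjusted p of 0.00538 by treat in limma. *Ddit4* gave 4.40 (SE 0.397, adjusted p = 6.96e-06 by treat) and *Nupr1* 4.27 (SE 0.534). Their order rests on the added constant, since voom gave 4.57 for *Ddit4* and 5.42 for *Nupr1*. *Ddit3* gave 1.39 and *Trib3* 2.89, both called by treat, and *Atf3* gave 3.69. As *Atf3*, *Nupr1* and *Adm2* met the filter through the tumors, their sizes are given only as a description. Among the hormones, *Gdf15* rose by 2.15 (SE 0.247, adjusted p = 0.000166 by treat). *Adm2* had 2 recovered reads over the 3 normal livers and 1286 over the 3 vehicle tumors, a ratio of 315 in normalized level with an exact 95% counting interval of 87.0 to 2604. Its fitted log2 fold change of 3.93 rests on the added constant of 1 FPKM, and was 6.81 with 0.1 FPKM.

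For *Fgf21* the log2 difference was 0.63 (SE 0.493, adjusted p = 0.893 by treat and 0.270 by the moderated test), and the ranges overlapped. For *Atf5* it was -0.27 (SE 0.389, adjusted p = 1 by treat), and its direction turned to 0.24 without normal liver replicate 2 and to 0.66 when plain library totals replaced the authors' scaling. Without normal liver replicate 3 it was -0.78 and called lower by the moderated test (adjusted p = 0.0345). Normal liver replicate 2 was the highest normal liver for 7 of the 10 genes, against 37.6% of all tested genes. It was 6.64-fold above the mean of the other normal livers for *Nupr1*, 4.36-fold for *Fgf21*, 3.54-fold for *Trib3* and 2.71-fold for *Atf5*. Without normal liver replicate 2, *Fgf21* was higher in vehicle tumors by 1.26 and 9 genes were higher by the moderated test. The share of all genes called in that setting was not counted. All 10 hepatocyte markers, 8 of 11 macrophage and Kupffer cell markers and 4 of 8 endothelial, 4 of 5 erythroid and 2 of 3 tested B and plasma cell markers were lower in the vehicle tumors by the same test, 4 of 5 tested cholangiocyte markers were higher, 5 of 9 stellate and fibroblast markers were higher and 4 lower, and their part in these values was not tested.

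**Figure D2:**
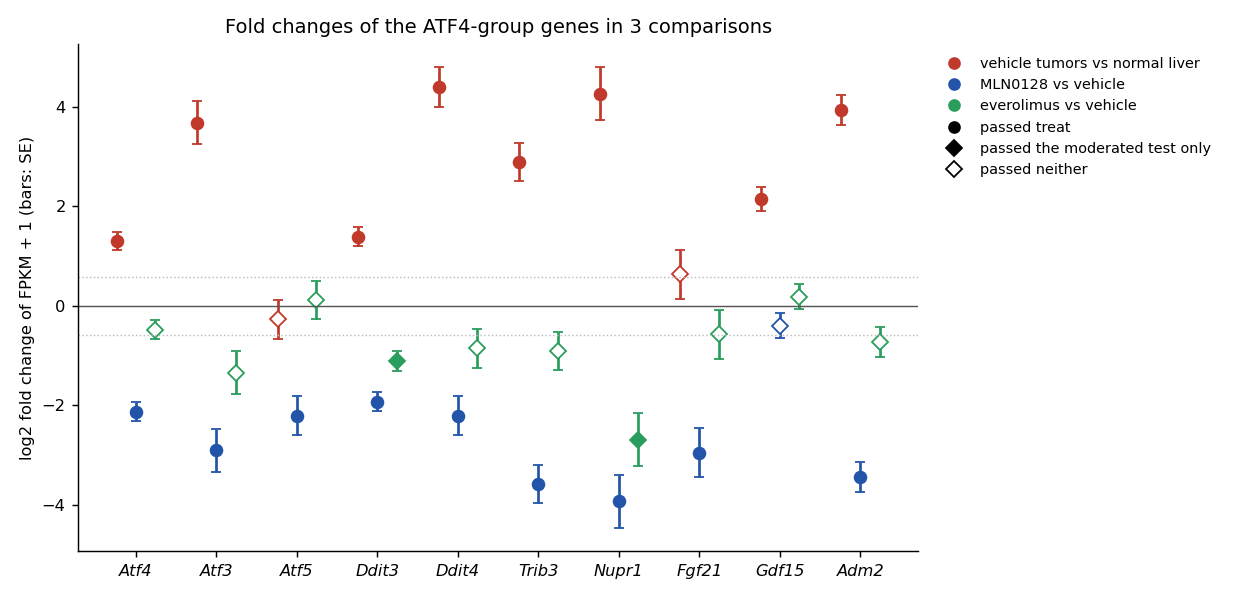
Log2 fold changes (vertical axis, log2 of FPKM + 1) of the 10 genes in vehicle tumors against normal liver (red), MLN0128 against vehicle (blue) and everolimus against vehicle (green), with SE. Filled circles passed treat, filled diamonds passed the moderated test only, open diamonds passed neither, and dotted lines mark a fold change of 1.5. Red points are above 0 for 9 genes, and blue points lie below the green point for every gene.

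With MLN0128, 9 of the 10 genes were called lower than with vehicle, *Gdf15* being the exception. *Atf4* mRNA fell to 22.3% of its vehicle mean, and *Atf5* (21.7%), *Ddit3* (20.9%) and *Ddit4* (21.5%) fell to much the same share. *Atf3* was at 8.81% of vehicle, *Trib3* at 5.95%, *Fgf21* at 5.14%, *Nupr1* at 4.69% and *Adm2* at 3.34%. These calls use the MLN0128 libraries whose gap to everolimus was in view when the genes were selected, so they describe the selected genes, and nothing is read from their excess over all genes. By treat 9 members were lower, beside 1.65% of all genes, and 0 were higher, beside 0.479%. By the moderated test 9 were lower (17.1% of all genes) and 0 were higher (14.9%), and 0 were higher at an unadjusted p under 0.05. The median log2 fold change was -2.56 over the 10 genes and -0.01 over all tested genes. The ranges of all 10 genes lay below vehicle, as they did for 23.4% of all genes.

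The log2 fold change of *Atf4* with MLN0128 against vehicle was -2.13 (SE 0.188), with an adjusted p of 0.000829 by treat and of 0.0397 at most over the alternatives. *Nupr1* fell by 3.93 (SE 0.534, adjusted p = 0.00489 by treat), *Trib3* by 3.58 and *Adm2* by 3.45. *Fgf21* fell by 2.95 (SE 0.493, adjusted p = 0.0206 by treat) and *Atf3* by 2.90. The sizes and order of these falls rest on the added constant. Voom gave -5.18 for *Adm2*, -4.70 for *Nupr1*, -4.29 for *Fgf21*, -4.05 for *Trib3* and -3.48 for *Atf3*. *Ddit3* fell by 1.93 (SE 0.195, adjusted p = 0.0026 by treat). The calls of *Atf5* (-2.21, adjusted p = 0.0408 by treat) and *Ddit4* (-2.21, adjusted p = 0.0435) were close to the threshold, and each was lost when any of 8 single libraries was left out, at adjusted p up to 0.158 and 0.147 by treat. The *Fgf21* call was lost without vehicle replicate 1 or 3 or MLN0128 replicate 1 or 2, at adjusted p up to 0.0940 by treat, and the *Atf3* call without MLN0128 replicate 1 (adjusted p = 0.0541). *Gdf15* gave -0.40 (SE 0.247, adjusted p = 1 by treat and 0.241 by the moderated test), although its 3 MLN0128 values lay below the 3 vehicle values.

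MLN0128 replicate 3, the library without *Xist*, was on its own below all vehicle tumors for all 10 genes, as for 38.4% of all genes. Its log2 fold changes ran from -0.73 for *Gdf15* to -3.53 for *Trib3*, with *Atf4* at -2.26. With 1 library in the MLN0128 arm, assumed to vary like the other groups, no count of calls is read from this fit. Without MLN0128 replicate 1 alone, treat called 5 genes lower. The hepatocyte markers moved in both directions with MLN0128 (3 of 10 higher and 3 lower by the moderated test), 5 of 11 macrophage and Kupffer cell markers and 3 of 5 tested cholangiocyte markers were lower, and the part of these cells in the results was not tested.

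With everolimus, compared with the same 3 vehicle libraries, 2 of the 10 genes fell by the moderated test, *Nupr1* to 16.6% of its vehicle mean and *Ddit3* to 43.9%. The everolimus libraries were also part of the gap in view when the genes were selected. These counts therefore describe the selected genes, and nothing is read from their size beside that of all genes. By treat 0 members were lower, beside 0.57% of all genes, and 0 were higher, beside 0.0347%. By the moderated test 2 members were lower, *Ddit3* and *Nupr1* (6.05% of all genes), and 0 were higher (3.78%), while 6 were lower and 0 higher at an unadjusted p under 0.05. Limma's voom on the recovered reads called 1 gene lower by treat, *Nupr1*. The median log2 fold change was -0.79 over the 10 genes and 0.03 over all tested genes, and the ranges of 4 genes (*Ddit3*, *Ddit4*, *Trib3* and *Nupr1*) lay below vehicle, as they did for 14.8% of all genes.

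With everolimus against vehicle, *Nupr1* changed by -2.69 on the log2 scale (SE 0.534), with an adjusted p of 0.0103 by the moderated test and 0.123 by treat. *Ddit3* changed by -1.11 (SE 0.195, adjusted p = 0.00585 by the moderated test and 0.568 by treat). *Atf3* was at 39.2% of the vehicle mean (-1.35, SE 0.435, adjusted p = 0.0713 by the moderated test). *Trib3* (-0.91), *Ddit4* (-0.85), *Adm2* (-0.72), *Fgf21* (-0.57) and *Atf4* (-0.48) had adjusted p from 0.127 to 0.496 by the moderated test. *Atf5* (0.12) and *Gdf15* (0.19) had values slightly above 0, with adjusted p of 0.886 and 0.675. A p above the threshold does not show that these levels equal those of vehicle.

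Everolimus replicate 3 stood apart from its group. It was the highest everolimus library for 9 of the 10 genes, against 32.5% of all tested genes, and its median level over the 10 genes was 88.0% of the vehicle mean, compared with 40.9% and 45.3% in replicates 1 and 2. It stood 4.37-fold above the mean of the other 2 libraries for *Nupr1*, 3.00-fold for *Atf3* and 2.49-fold for *Adm2*, but 1.09-fold for *Atf5*. Without it, the moderated test called 5 genes lower, namely *Atf4*, *Atf3*, *Ddit3*, *Nupr1* and *Adm2*, and treat called *Nupr1* (-3.30, adjusted p = 0.0199). The share of all genes called in that setting was not counted, so the gain in calls is not read as particular to these genes. Without everolimus replicate 1 instead, the moderated test called only *Ddit3*, with *Nupr1* at an adjusted p of 0.0518, and without normal liver replicate 2, through the shared spread, it also called *Trib3* (adjusted p = 0.0464). Everolimus replicate 3 was also the highest of its group for 34 of 45 tested ATF4 target genes. The hepatocyte markers of this library summed to 3241 FPKM, with 3554 in replicate 1 and 8202 in replicate 2, and its depth of 22374214 reads lay between theirs. Over the 3 everolimus libraries, 3 of 5 tested cholangiocyte markers were lower and 2 of 5 erythroid markers higher than with vehicle, and their part was not tested.

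**Figure D3:**
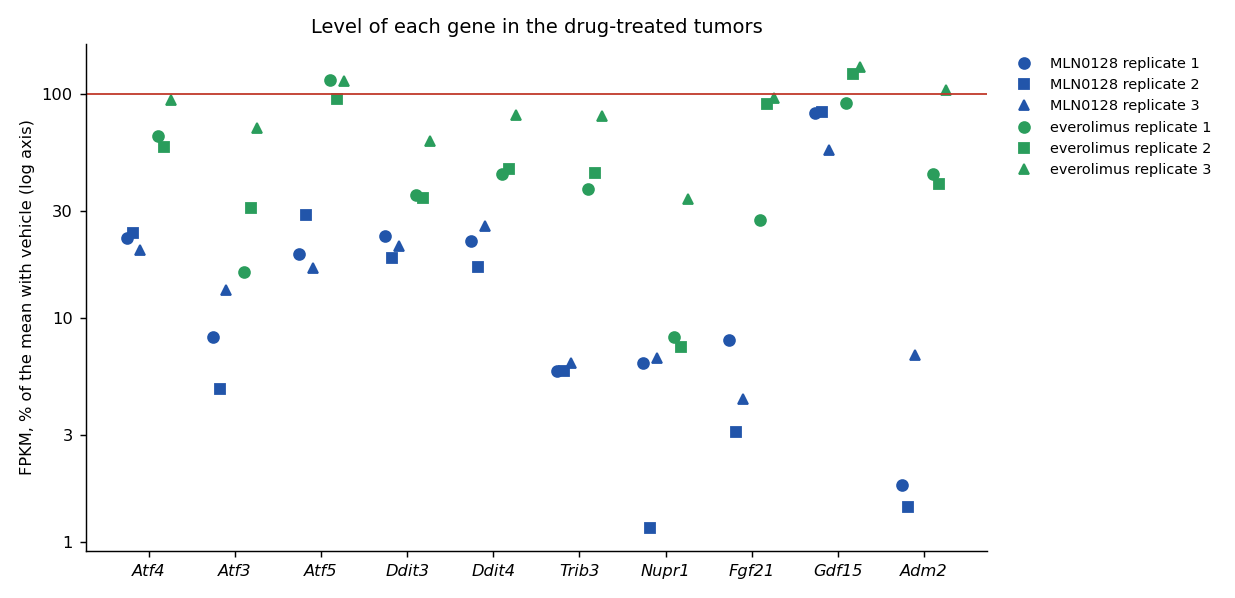
FPKM of each gene in the 6 drug-treated tumors as a percent of its mean in vehicle tumors (vertical log axis, red line at 100%), blue for MLN0128 and green for everolimus, with circle, square and triangle for replicates 1, 2 and 3. Every blue point lies below every green point of the same gene, and the green triangles reach 34.2% to 133%.

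Because the genes were selected on the gap between the drugs, it is described without a test. All 10 genes were lower in the 3 MLN0128 tumors than in the 3 everolimus tumors, with no overlap in any of them, as for 15.2% of all genes, and all 10 differed by more than 1.5-fold, as for 5.57%, which fell to 8 genes without everolimus replicate 3 and 9 without everolimus replicate 2 or MLN0128 replicate 3. The gap ran from the hormones *Adm2*, 18.8-fold higher in mean FPKM with everolimus, and *Fgf21*, 13.9-fold, down to *Gdf15*, 1.55-fold. *Trib3* was 9.07-fold higher with everolimus, *Atf5* 5.01-fold, *Atf3* 4.45-fold, *Nupr1* 3.55-fold, *Atf4* 3.26-fold, *Ddit4* 2.65-fold and *Ddit3* 2.10-fold. Single libraries moved some of these ratios. Without everolimus replicate 3, *Nupr1* was 1.67-fold, *Atf3* 2.67-fold and *Gdf15* 1.44-fold higher with everolimus, and without MLN0128 replicate 3 *Adm2* was 38.9-fold higher. With MLN0128 replicate 3 alone, the ratio was 9.22 for *Adm2*, 16.4 for *Fgf21*, 2.94 for *Atf3* and 2.04 for *Gdf15*, and all 10 genes still exceeded 1.5-fold, as for 8.13% of all genes. The median log2 difference, MLN0128 minus everolimus, was -1.60 over the 10 genes and -0.03 over all tested genes. Leaving out everolimus replicate 3 brought the former to -1.26.

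The margin between the groups was narrow in some genes and wide in others. The lowest everolimus value was 6.04 times the highest MLN0128 value for *Trib3*, 5.85 times for *Adm2*, 3.44 times for *Fgf21*, 3.30 times for *Atf5* and 2.42 times for *Atf4*. For *Gdf15* it was 1.09 times, for *Nupr1* 1.12 times and for *Atf3* 1.21 times. *Atf5* and *Nupr1* had unlike profiles. *Atf5* was at 109% of the vehicle mean with everolimus and 21.7% with MLN0128, whereas *Nupr1* was at 16.6% and 4.69%. Everolimus and MLN0128 are each compared with the same 3 vehicle libraries, so these shares are set side by side and not tested against each other.

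Beside the 10 genes, lists of ATF4 target genes were read in the same fit. The lists were chosen with earlier results of these data known. Their counts therefore describe the listed genes and are not independent of the results above. Of all genes, treat called 15.9% higher and 16.9% lower in vehicle tumors, 1.65% lower with MLN0128 and 0.57% lower with everolimus. The moderated test called 17.1% lower with MLN0128, and 6.05% lower and 3.78% higher with everolimus. Of 14 tested amino acid enzymes, 9 were higher in vehicle tumors than in normal liver and 1 was lower by treat, led by *Phgdh* and *Psat1* of serine synthesis (log2 fold changes 6.75 and 6.06). With MLN0128, 5 of the 14 were lower by treat and 11 by the moderated test, with a median of -1.36. *Chac1*, which degrades glutathione, fell by 4.23 with MLN0128 (SE 0.224, adjusted p = 9.09e-06 by treat), from 32.5, 20.8 and 27.9 FPKM with vehicle to 0.710, 0.287 and 0.460, while everolimus tumors held 14.7, 12.4 and 23.6. *Mthfd2*, of mitochondrial folate metabolism, fell by 3.24 and *Psph*, the last enzyme of serine synthesis, by 2.23. *Asns*, asparagine synthetase, was at 102, 107 and 94.9 FPKM with vehicle and 47.5, 47.5 and 54.0 with MLN0128, without passing the moderated test (-1.01, adjusted p = 0.0804). *Psat1* gave -1.58 (adjusted p = 0.0535 by the moderated test). With everolimus the moderated test called 1 enzyme lower, *Gpt2*, and 1 higher, *Pycr1*, and the median was -0.31.

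Of the 10 amino acid transporters, 7 were higher and 1 lower in vehicle tumors by treat, with *Slc7a3*, *Slc7a5* and *Slc7a1* at 4.50, 4.48 and 3.71. MLN0128 lowered 5 by treat and 8 by the moderated test (median -1.32), and everolimus lowered 1 by treat and 3 by the moderated test (median -0.29). By treat the transporter called under both drugs was *Slc7a11*, the cystine importer (by the moderated test also *Slc3a2* and *Slc1a5*). *Slc7a11* was at 6.94, 11.4 and 13.3 FPKM in vehicle tumors, 0.106, 0.0404 and 0.198 in MLN0128 tumors and 0.167, 0.534 and 1.06 in everolimus tumors. Its log2 fold change was -3.33 with MLN0128 and -2.86 with everolimus (adjusted p = 0.000332 by treat). Both values of *Slc7a11* rest on the added constant of 1 FPKM, since its means were 10.5 FPKM with vehicle, 0.115 with MLN0128 and 0.587 with everolimus. On this scale only, the nearest pair of values among the 10 genes was that of *Nupr1*, -3.93 and -2.69.

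Of 21 regulators and other targets, 11 were higher and 2 lower in vehicle tumors by treat. MLN0128 lowered 3 by treat (*Aars*, *Vldlr* and *Nars*) and 15 by the moderated test, with a median of -1.03, and everolimus lowered 2 by the moderated test, *Sqstm1* and *Aars*, with a median of -0.30. *Sesn2*, a stress-induced inhibitor of mTORC1, rose by 2.71 in vehicle tumors and fell by 1.14 with MLN0128 (adjusted p = 0.00336 by the moderated test). *Cebpb*, a dimer partner of ATF4, fell by 1.43 in vehicle tumors and by 1.03 with MLN0128 (adjusted p = 0.00527 by the moderated test). In vehicle tumors it thus moved opposite to *Atf4*. Between the drugs, 10 of 14 enzymes, 7 of 10 transporters and 13 of 21 other targets were lower in all MLN0128 tumors than in all everolimus tumors, as were 15.2% of all genes.

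With MLN0128 replicate 3 as the single library of that arm, an alternative chosen for these lists after seeing the data, the median log2 fold change against vehicle was -1.22 over the enzymes, -1.19 over the transporters and -0.99 over the other targets, and -0.03 over all tested genes. The moderated test then called 8 of 14 enzymes, 6 of 10 transporters and 10 of 21 other targets lower, beside 7.50% of all genes, and treat called 2, 1 and 1. *Chac1* stood at -4.24 and *Slc7a11* at -3.23, both called by the moderated test, while *Sesn2* lost its call (-0.76, adjusted p = 0.127 by the moderated test). In this library 13 of the 14 enzymes, 8 of the 10 transporters and 18 of the 21 other targets lay below all everolimus tumors, as did 36.0% of all genes.

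**Figure D4:**
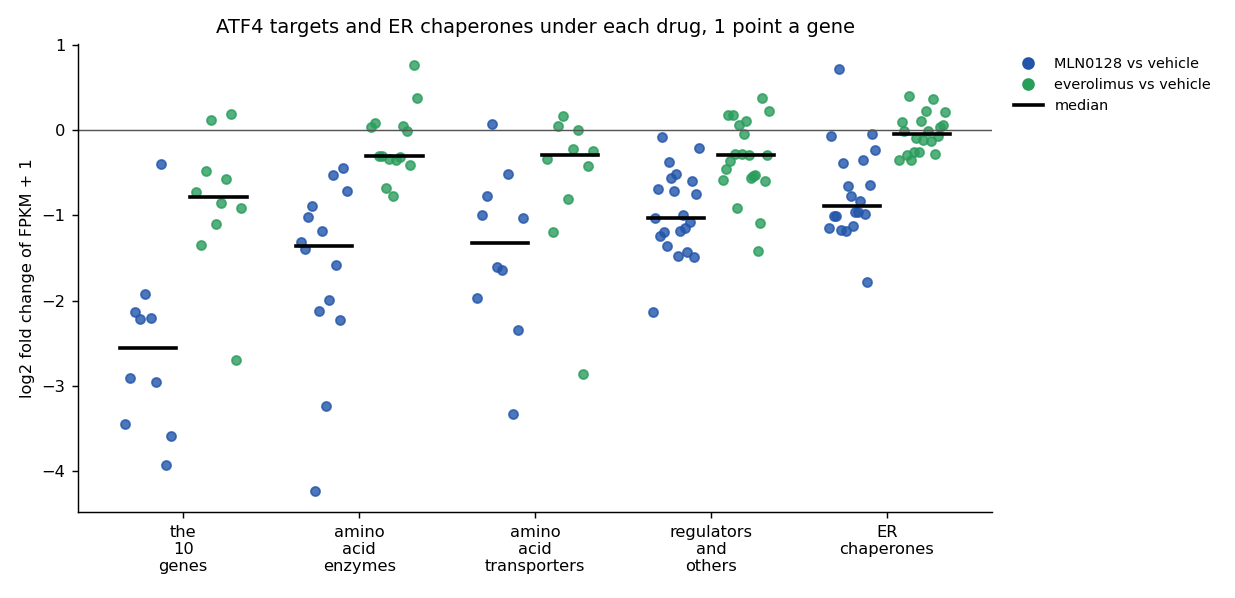
Log2 fold changes (vertical axis, log2 of FPKM + 1) of the 10 genes, the 3 lists of ATF4 targets and the ER chaperones with MLN0128 (blue) and everolimus (green) against the same vehicle tumors, 1 point a gene and black lines at medians. The blue medians run from -2.56 for the 10 genes to -0.89 for the ER chaperones, and the green medians from -0.79 to -0.04.

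Genes of the other stress arms and of the inputs to ATF4 were read in the same way, from lists chosen likewise. Several lists share genes, among them *Eif4ebp1*, *Sesn2*, *Ppp1r15a*, *Cebpb* and *Jun*, so their counts are not separate results. ER chaperones, which ATF6 and XBP1 control, were lower in vehicle tumors than in normal liver for 5 of 20 genes by treat and 11 by the moderated test, among them *Dnajb9* (-2.23) and *Xbp1* (-1.74), where *Ddit3* and *Trib3* were higher. With MLN0128, 14 of the 20 were lower and 1 higher by the moderated test, and with everolimus 0 were called by either test, with 2 lower at an unadjusted p under 0.05. Of 19 genes of eIF2 and its kinases and phosphatases, 14 were higher and 1 lower in vehicle tumors by the moderated test. MLN0128 lowered 5 and everolimus 3 of them, with *Ppp1r15a*, the stress-induced phosphatase subunit, at -1.18 with MLN0128 and *Eif2ak2*, the kinase PKR, at -1.02 with everolimus. Of 23 tested bZIP partners, 6 were higher and 6 lower in vehicle tumors by the moderated test, and 2 were higher and 11 lower with MLN0128, led by *Cebpd* (-1.56). Over all genes the moderated test called 36% higher and 33% lower in vehicle tumors, and 14.9% higher and 17.1% lower with MLN0128, so the bZIP counts in vehicle tumors were below the share of all genes.

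*Gdf15* is also known as a p53 target. Of 18 p53 target genes, 13 were higher in vehicle tumors by treat, led by *Cdkn1a* (5.75), and with MLN0128 3 were higher and 4 lower by the moderated test, near the shares of all genes, with a median of -0.12. *Fgf21* is also a PPAR alpha target. Of 20 such genes, 14 were lower and 3 higher in vehicle tumors by treat, and with MLN0128 3 were lower and 1 higher by the moderated test, no more than the 17.1% and 14.9% of all genes, the lower ones led by *Pdk4* (-3.01). *Ddit4* is also induced by hypoxia. Of 14 tested hypoxia targets, 4 were lower with MLN0128 by treat (1.65% of all genes) and 7 by the moderated test (17.1%). Among them were *Slc2a1* (-2.34) and *Ndrg1* (-2.21), which had risen by 1.80 and 4.71 in vehicle tumors. *Atf3* is also an immediate early gene. Of 13 tested genes of that kind, 7 were lower with MLN0128 by the moderated test (17.1% of all genes) and 0 were called by treat. *Dusp1* had the largest value (-1.82).

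The receptors of the hormones were also read. Of 11 listed receptor genes, 8 were tested, and *Fgfr2* (5.90 FPKM on average in normal liver and 0.269 in vehicle tumors), *Calcrl*, the core of the receptor for *Adm2* peptide, *Fgfr4* and *Ramp2* were lower in vehicle tumors by the moderated test. *Ramp1* was lower with MLN0128 (-1.28) and with everolimus (-1.15) by that test. Of 17 genes of mTORC1, mTORC2 and their inputs, 6 were lower and 1 higher with MLN0128 by the moderated test (17.1% and 14.9% of all genes). The lower ones were led by *Sesn3* (-1.35) and *Eif4ebp1* (-1.25).

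With MLN0128 replicate 3 alone, fewer genes were called in these lists, except that more PPAR alpha targets were called lower. The median log2 fold change of the PPAR alpha targets was -0.61 with this library and -0.04 with all MLN0128 libraries. Over all tested genes it was -0.03 and -0.01. The share of all genes called lower with this library is the one given with the ATF4 targets. The moderated test called 6 of 20 ER chaperones lower, 3 of 19 eIF2 genes, 2 of 23 bZIP partners, 3 of 18 p53 targets, 5 of 20 PPAR alpha targets, 6 of 14 hypoxia targets and 4 of 17 mTOR genes. It called none of the immediate early genes and receptors lower, with 5 and 1 lower at an unadjusted p under 0.05, and it called no gene of these lists higher, with up to 2 a list higher at an unadjusted p under 0.05. The ER chaperones had a median of -0.52, and *Cebpd* (-1.30, adjusted p = 0.0553), *Dusp1* (-1.86, adjusted p = 0.0824) and *Ramp1* (-1.34, adjusted p = 0.0760) lost their calls by the moderated test.

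Over the 9 tumor libraries, the 10 genes varied together to different degrees, as a description in which the points share libraries and drug groups. *Trib3* lay closest to the mean profile of the 10, with a Pearson r of 0.996, followed by *Atf4* at 0.988 and *Adm2* at 0.984. *Nupr1* (0.884) and *Gdf15* (0.712) lay farthest from it. The closest pair was *Atf4* and *Trib3* (r = 0.993), and the loosest was *Nupr1* and *Gdf15* (r = 0.371). The 8 other genes whose profile was most like that of the 10 were *Nek6*, *Kcmf1*, *Derl1*, *Desi2*, *Arpc5l*, *Gjb2*, *Aars* and *Slc6a9*, with r from 0.982 to 0.994. Of these, *Gjb2*, a gap junction protein of hepatocytes, averaged 56.6 FPKM in vehicle tumors, 13.3 in MLN0128 tumors and 37.5 in everolimus tumors, but 114 in normal livers.

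For 2 of the genes the annotation leaves the counting uncertain. The span of *Atf5* overlaps those of *Nup62* and *Il4i1* on the other strand by 571 and 272 bases, with 82 bases of exon shared with each, and *Nup62* was at 4.26 to 4.83 FPKM in normal livers but 21.2 to 30.5 across tumors, with no fall under MLN0128 (25.0 to 27.5). *Ddit3* shares 68 bases of exon with *Mars* on the other strand and has a second gene record in the annotation. Whether reads were counted by strand was not given in the sources used here.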

How the data were processed

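Novogene prepared and sequenced the libraries. The authors counted reads by Ensembl gene, and org.Mm.eg.db supplied the symbols. Per the labels, RNA was captured by polyA or freed of rRNA, and the submitters' processing notes name GRCm38 and FastQC 0.11.7. The aligner and the gene lengths are not given in the sources used here. The authors deposited linear FPKM, rounded, in which 22 symbols had become dates, and their scaling factors beyond library totals were 0.585 to 0.595 in normal liver and 1.10 to 1.37 in tumors. FPKM are not counts, so the authors' edgeR glmTreat was replaced by limma 3.58.1 (R 4.3.3, trend) on log2(FPKM + 1). The model held 4 groups and all 12 libraries, for genes of at least 0.5 FPKM in at least 3 libraries. The treat threshold was a 1.5-fold change, with Benjamini-Hochberg adjusted p-values below 0.05 called, with the moderated test beside it, and the test was tried on simulated data.

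The 10 genes, the lists and the alternatives were chosen with earlier results of these data known. Genes named from the lists were up to 4 a comparison with the largest absolute log2 fold change among those under 0.05 by the moderated test, and *Asns*, *Chac1*, *Psat1*, *Slc7a11*, *Sesn2* and *Cebpb* whatever their values. Genes alike in profile were the 8 with the highest Pearson r to the mean z-score of the 10. Reads were recovered as FPKM times exon length in GENCODE M21, where 98.2% to 98.8% of values under 20 reads fell within 0.1 of a whole number. Counting intervals cover counting error only. Each library is labelled as its own sample, but not as a separate mouse, so p-values measure only the spread between samples, which may be technical. The replicate numbers did not pair samples. Sequences are from RefSeq. Tables were handled with pandas 2.3.3 and intervals with scipy 1.17.1, and figures were drawn with matplotlib 3.10.9.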

Additional observations from a re-analysis of the deposited data

How the results depend on the processing

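The alternatives changed the pseudocount to 0.1, the filter, the scaling between libraries, the test, which groups were fitted, the prior variance and the replicate block, used voom on recovered reads, or left out libraries. In vehicle tumors against normal liver, 8 genes were higher and 0 lower by treat under all of them. The 8 include *Atf3*, *Nupr1* and *Adm2*, which met the filter through the tumors and are not read as a result. *Atf5* reversed to 0.66 with plain library totals, which moved the median of all genes to 0.62, and to 0.24 without normal liver replicate 2, in a range of -0.78 to 0.24 with 1 library left out. With MLN0128, 9 genes were lower by treat, 5 to 9 with 1 library left out (5 without MLN0128 replicate 1) and 2 without MLN0128 replicates 1 and 2, where 1 library remained in that arm. With everolimus, 0 genes were lower by treat, 0 to 1 with 1 library left out (1 without everolimus replicate 3), 1 with voom and 2 by the moderated test, with or without a fold change above 1.5. The median gap between the drugs, -1.60, ran from -1.85 to -1.26 with 1 library left out, the latter without everolimus replicate 3. With the replicate number as a block, treat called 8 genes higher in vehicle tumors, 9 lower with MLN0128 and 0 lower with everolimus, so the block changed no count. Treat called 0 genes lower in vehicle tumors and 0 higher with either drug under every alternative. With MLN0128, leaving out 1 library ended the call of *Atf5* for normal liver 1, vehicle 1, 2 and 3, MLN0128 1 and 3, and everolimus 1 and 3, and that of *Ddit4* for normal liver 2, vehicle 1, 2 and 3, MLN0128 1 and 2, and everolimus 1 and 2. Same-numbered libraries correlated from -0.289 to 0.049. Where a call was lost, the cause was not tested. Depth limited *Adm2* in normal liver (2 reads). With MLN0128 it limited *Adm2* (48 reads over 3 libraries) and *Fgf21* (42 reads over 3 libraries).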

Other observations

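Everolimus replicate 1 stood out in another list. Of 18 p53 target genes, 15 were highest in everolimus replicate 1 among the 3 everolimus libraries, 2 in replicate 2 and 1 in replicate 3, whereas 10 of 14 ATF4-target enzymes and 9 of 10 transporters were highest in replicate 3. *Psat1* was at 9.78 FPKM in normal liver replicate 2 and at 0.850 and 0.428 in the other normal livers, and *Asns* at 33.2 against 18 and 6.17, the same library in which *Trib3*, *Nupr1*, *Fgf21* and *Atf5* were highest. These libraries were compared after their values were seen, and no test was made.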
